A study of Homo sapiens with 8 samples.

Results

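Adenosine reaches the inside of a cell through nucleoside transporters and is then phosphorylated, deaminated or split into its base. Transcripts of 10 genes of this route were examined in HEK293T cells treated with DZNep (3-deazaneplanocin A), an adenosine analog that inhibits the hydrolase of S-adenosylhomocysteine, AHCY. The genes were 4 equilibrative nucleoside transporters (SLC29A1, SLC29A2, SLC29A3 and SLC29A4), adenosine kinase (ADK), 2 deaminases (ADA and ADAL), 2 nucleotidases (NT5E and NT5C2) and purine nucleoside phosphorylase (PNP). They were listed by name for their role in nucleoside handling, with no threshold on their values but with earlier results of these data known, and are 10 of the 57500 genes that were counted. RNAseq was performed on 8 libraries, 4 from cells given vehicle (Control) and 4 from cells given 100 µM DZNep, all collected after 48 h. HEK293T, a line from human embryonic kidney, expresses the large T antigen of SV40, and both groups share that background and the 10% serum of the medium. The labels name DMEM as the medium and the study's methods name RPMI. The study used 1 cell line and, for RNAseq, 1 dose and 1 time, and its text calls the replicates biological.

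Equilibrative transporters let nucleosides cross a membrane down their concentration gradient, in either direction. SLC29A1 and SLC29A2 (ENT1 and ENT2) serve the plasma membrane, SLC29A3 (ENT3) lies mainly on lysosomes and other internal membranes, and SLC29A4 (ENT4, also named PMAT) carries monoamines and, in acidic surroundings, adenosine. Inside the cell ADK turns adenosine into AMP and ADA turns it into inosine, which PNP then splits into hypoxanthine and ribose 1-phosphate. ADAL deaminates N6-methyl-AMP, NT5C2 is a cytosolic nucleotidase that prefers IMP and GMP, and NT5E (CD73) makes adenosine from AMP on the outer face of the cell.

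The libraries held between 25043058 and 44902779 counts, and Control replicate 1 was the shallowest. No 2 replicates of a group agreed within sampling noise (the lowest chi-square per degree of freedom was 26.9). The mitochondrial share of the counts ran from 3.02% to 13.7%. All 8 genes of a list expected in HEK293T cells were detected, and their summed level was 970 to 1260 CPM (counts scaled to the same total in every library) in Control and 1190 to 1320 CPM in DZNep libraries. The leukocyte gene CD3E had 0 raw counts in every Control library and 9 to 36 in DZNep libraries. The sums were 4.78 to 7.99 and 5.54 to 16.9 CPM for 5 leukocyte genes, and 4.22 to 4.87 and 5.1 to 8.08 CPM for 3 endothelial genes. They were 0.0399 to 0.196 and 0.445 to 0.913 CPM for 3 hepatocyte genes and 93.9 to 177 and 77.5 to 186 CPM for 4 fibroblast genes. Single genes of these lists did change. VWF had 2 to 3 raw counts in Control and 65 to 135 in DZNep libraries, and CLDN5 (log2 fold change 1.98) had 4 to 8 and 20 to 43. These 2 genes passed the filter on low counts through the DZNep group alone, so they could be called only as higher. LUM was higher by a log2 fold change of 2.08 and KRT8 by 2.44. By the adjusted p-value alone, KRT18 was higher (0.83, adjusted p = 0.0453, edgeR). INA (-0.64, adjusted p = 0.027, edgeR) and PAX2 (-0.54, adjusted p = 0.0228, edgeR) were lower. The leukocyte maximum came from LYZ, at 450 normalized counts in DZNep replicate 2. COL1A2 had 15.3 normalized counts in DZNep replicate 2 and 1072 to 1647 in the other DZNep libraries. The part of these cell type genes in the results below was not tested. DZNep replicate 2 stood apart, with 21 of 13336 genes over 4-fold away from each other replicate of its group, against 0 to 2 genes in the other libraries.

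Of the 4 transporters, SLC29A4 moved most and SLC29A3 little, so the sequences before their RefSeq transcription starts are shown side by side (250 bases, GRCh38.p14, plus strand, 5′ to 3′, with every CG dinucleotide in capitals). The SLC29A4 window is chr7:5282693-5282942, which lies inside the longer GENCODE gene, and the SLC29A3 window is chr10:71319009-71319258.
SLC29A4: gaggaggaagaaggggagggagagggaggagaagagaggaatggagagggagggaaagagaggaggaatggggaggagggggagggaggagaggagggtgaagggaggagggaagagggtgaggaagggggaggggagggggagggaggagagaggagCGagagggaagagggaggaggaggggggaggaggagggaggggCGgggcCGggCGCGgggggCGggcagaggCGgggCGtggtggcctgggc
SLC29A3: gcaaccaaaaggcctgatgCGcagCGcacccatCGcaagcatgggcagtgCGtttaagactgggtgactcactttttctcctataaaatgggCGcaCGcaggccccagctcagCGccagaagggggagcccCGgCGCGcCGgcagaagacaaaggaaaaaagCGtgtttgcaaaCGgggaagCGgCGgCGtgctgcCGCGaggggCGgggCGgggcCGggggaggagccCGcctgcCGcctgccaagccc
The SLC29A4 window is purine-rich on this strand, with 8 CG dinucleotides toward its 3′ end, and 56.3% of 35116 RefSeq windows of this length hold as many or more. The SLC29A3 window holds 23, a number that 25.8% of the windows reach. Each holds 2 GC boxes (GGGCGG on either strand, in 42.6% of all windows), and SLC29A3 alone of the pair holds a TATA box (TATAAA, in 10.7%). Neither holds CCAAT (32.0% of windows) or the E box CACGTG (6.34%). A match is a description of these letters and no evidence of a bound factor. Windows were found for 8 of the 10 genes, and the counts of CG ran from 0 in 1 of 3 NT5C2 windows to 41 in that of ADA.

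All 10 genes passed the filter on low counts. In the DZNep-treated cells 2 of them, SLC29A4 and NT5E, were downregulated by more than 2-fold with an adjusted p-value below 0.05 (edgeR's quasi-likelihood test, adjusted over 19171 genes). That is 20% of the 10 genes, and 13.5% of all genes tested were lower by the same rule. None was upregulated, while 10.6% of all genes were. At an unadjusted p under 0.05 the number upregulated was also 0, as it was with DESeq2 and with limma. By the adjusted p-value alone 5 of the 10 genes were lower (SLC29A2, ADA and ADAL in addition), against 21.8% of all genes lower and 19.1% higher. In the same 5 genes the highest DZNep library was below the lowest Control library, an order held by 20.2% of all genes, and 18.6% of genes held the opposite order. With the replicate number as a block, 2 of the 10 genes were again lower and 0 higher at both thresholds (14.3% and 11.7% of all genes), and 5 were lower and 0 higher by the adjusted p-value alone (30.2% and 28.8%). The median log2 fold change of the 10 genes was -0.29, and that of all genes tested was -0.03. In bulk libraries, fewer cells with a transcript and less of it in each cell cannot be told apart.

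**Figure D1:**
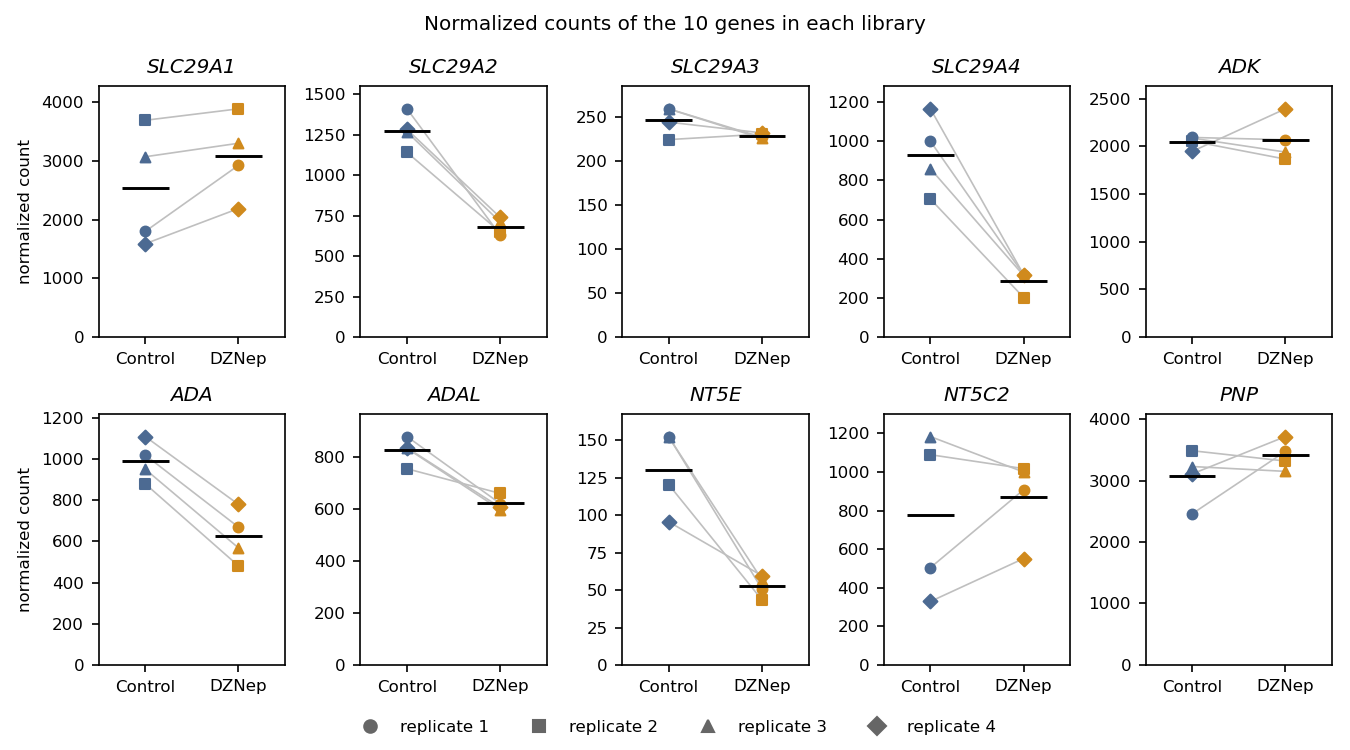
Normalized counts (deposited counts divided by the size factor of the library, linear axes from 0) of the 10 genes in 4 Control and 4 DZNep libraries. Symbols mark the replicate number, grey lines join libraries of the same number and black bars are group means. The groups are separate for SLC29A2, SLC29A4, ADA, ADAL and NT5E and overlap for the other genes.

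SLC29A4 (ENSG00000164638, chr7:5274369-5306912, plus strand) had the largest change of the transporters. Its normalized counts were 999, 704, 859 and 1165 in Control replicates 1 to 4 and 319, 202, 314 and 318 in DZNep replicates 1 to 4. The groups were well apart, and the lowest library of each was replicate 2. The mean was 932 ± 196 in Control and 288 ± 57.6 with DZNep (SD, n = 4 each), or 3.29-fold lower. On the log2 scale this was a change of -1.72 ± 0.21 (SE) with a 95% interval of -2.19 to -1.25 (adjusted p = 0.000188, edgeR's quasi-likelihood test). The 4 pairs of libraries with the same number gave log2 ratios from -1.87 to -1.45. Without DZNep replicate 2, the library that stood apart, the log2 fold change was -1.57 (adjusted p = 0.000636, edgeR). It alone of the 10 genes passed edgeR's test against a 2-fold change as the null (glmTreat, adjusted p = 0.00955). TNRC18 on the opposite strand shares 2.11% of its exon bases, and whether the counting used strand is not stated in the sources used here.

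SLC29A2 (ENSG00000174669, chr11:66362521-66372214, minus strand), the second transporter of the plasma membrane, was lower without reaching 2-fold. Control replicates 1 to 4 had 1411, 1142, 1268 and 1284 normalized counts, and DZNep replicates 1 to 4 had 630, 649, 712 and 740. The groups did not overlap, with the lowest Control library at replicate 2 and the highest DZNep library at replicate 4. It changed by -0.93 ± 0.13 on the log2 scale (95% interval -1.22 to -0.64), a 1.9-fold lower level that passed the adjusted p-value alone (0.000405, edgeR's quasi-likelihood test). An lncRNA gene on the other strand, B4GAT1-DT, covers 10.3% of its exon bases and had at most 174 counts in a library.

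SLC29A1 (ENSG00000112759, chr6:44219553-44234142, plus strand), the main plasma membrane transporter for adenosine in many cells, had the widest spread among Control replicates of the 4 transporters. The libraries held 1801, 3693, 3072 and 1591 normalized counts in Control and 2926, 3888, 3302 and 2190 with DZNep. Control replicates 1 and 4 were low and replicates 2 and 3 high, so the groups overlapped. The DZNep library was above the Control library of the same number in 4 of 4 pairs, by log2 ratios of 0.70, 0.07, 0.10 and 0.46. The log2 fold change of 0.25 ± 0.28 did not pass the test (95% interval -0.38 to 0.88, adjusted p = 0.513, edgeR). With the replicate number as a block it was 0.31 ± 0.13 (adjusted p = 0.0511, edgeR), which also missed the threshold.

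SLC29A3 (ENSG00000198246, chr10:71319259-71381423, plus strand), the lysosomal transporter, varied least of the family within each group. Control libraries had 259, 224, 259 and 244 normalized counts and DZNep libraries 227, 230, 225 and 232, and the groups overlapped. Its log2 fold change was -0.14 ± 0.14, and the 95% interval of -0.46 to 0.18 leaves out a 2-fold change in either direction (adjusted p = 0.483, edgeR).

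ADK (ENSG00000156110, chr10:74151202-74709963, plus strand), which starts the salvage of adenosine to AMP, had nearly the same mean in both groups. In Control it had 2093, 2054, 2086 and 1947 normalized counts, and with DZNep 2069, 1866, 1940 and 2393. The Control libraries lay within the range of the DZNep libraries. Its log2 fold change was -0.01 ± 0.13 with a 95% interval of -0.30 to 0.28 (adjusted p = 0.950, edgeR), and the sign changed under 10 of 18 other settings.

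ADA (ENSG00000196839, chr20:44584896-44652252, minus strand), the deaminase that competes with ADK for adenosine, was lower. Its normalized counts were 1019, 879, 950 and 1109 in Control and 669, 481, 568 and 780 in DZNep libraries. The groups did not overlap, and the 4 replicate numbers stood in the same order in both. The mean went from 989 ± 97.9 to 624 ± 129 (SD, n = 4 each), or 1.62-fold lower. On the log2 scale the change was -0.69 ± 0.17 (95% interval -1.08 to -0.31, adjusted p = 0.00944, edgeR). With replicates 1 and 4 alone the adjusted p was 0.0526 and with replicates 2 and 3 alone it was 0.00207 (edgeR, a split chosen after the data were seen). PKIG, on the opposite strand, shares 7.01% of its exon bases and had 529 to 1459 counts.

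ADAL (ENSG00000168803, chr15:43330672-43354569, plus strand), the deaminase of N6-methyl-AMP, was lower by a smaller step. Control libraries had 880, 756, 835 and 837 normalized counts, and DZNep libraries had 622, 661, 598 and 607. Control replicate 2 came nearest to the DZNep libraries, of which replicate 2 was the highest, and the groups did not overlap. It changed by -0.44 ± 0.13 on the log2 scale (95% interval -0.72 to -0.16, adjusted p = 0.0182, edgeR), a 1.35-fold lower level. The adjusted p was under 0.05 in 11 of 18 other settings, and was 0.0664 without DZNep replicate 1 and to 0.0571 without DZNep replicate 3 (edgeR).

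NT5E (ENSG00000135318, chr6:85449584-85495791, plus strand), the cell surface source of adenosine, was downregulated at the lowest counts of the 10 genes. Its normalized counts were 153, 120, 152 and 95.6 in Control and 50.8, 43.5, 57.0 and 59.6 in DZNep libraries, from 89 to 170 and from 53 to 66 raw counts. The groups did not overlap, and replicate 4 held both the lowest Control and the highest DZNep library. The mean fell 2.51-fold, from 130 ± 27.6 to 52.7 ± 7.19 (SD, n = 4 each). That was a log2 fold change of -1.33 ± 0.23 (95% interval -1.84 to -0.82, adjusted p = 0.00122, edgeR). The interval reaches past -1, and the gene did not pass edgeR's test against a 2-fold change (glmTreat, adjusted p = 0.179). Without DZNep replicate 2 the log2 fold change was -1.24 (adjusted p = 0.00499, edgeR).

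NT5C2 (ENSG00000076685, chr10:103087185-103277605, minus strand), the cytosolic nucleotidase, varied more among Control replicates than between the groups. Control libraries had 504, 1089, 1183 and 329 normalized counts, and DZNep libraries had 908, 1017, 999 and 551. The groups overlapped, and Control replicates 1 and 4 were low, the same libraries in which SLC29A1 was low. The mitochondrial share was 7.76% and 13.7% in those 2 libraries and 3.02% and 3.16% in Control replicates 2 and 3. In DZNep replicates 1 to 4 it was 7.04%, 4.25%, 4.44% and 10.1%, and its part in the spread was not tested. It changed by 0.135 ± 0.38 on the log2 scale with a wide 95% interval of -0.71 to 0.98 (adjusted p = 0.801, edgeR). CNNM2 on the opposite strand shares 29.8% of the NT5C2 exon bases and INA a further 4.95%, so reads of these genes cannot be told apart there if strand was not used.

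PNP (ENSG00000198805, chr14:20461992-20477094, plus strand), which takes the inosine made by ADA, showed no change beyond the spread. Control libraries had 2459, 3485, 3228 and 3108 normalized counts, and DZNep libraries had 3474, 3317, 3149 and 3715. The groups overlapped, with Control replicate 1 the lowest and DZNep replicate 4 the highest library. It changed by 0.13 ± 0.15 on the log2 scale, and the 95% interval of -0.20 to 0.45 leaves out a 2-fold change (adjusted p = 0.527, edgeR).

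An exact two-sided permutation test on log2(normalized count + 1), 4 libraries against 4, gave p = 0.0286 for SLC29A4, SLC29A2, ADA, ADAL and NT5E. That is the smallest p this design allows. The exact permutation p was 0.143 for SLC29A3, 0.229 for PNP, 0.314 for SLC29A1, 0.629 for NT5C2 and 0.943 for ADK. A p that misses the threshold does not show that a level stayed the same, and for these genes the intervals above give the range left.

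**Figure D2:**
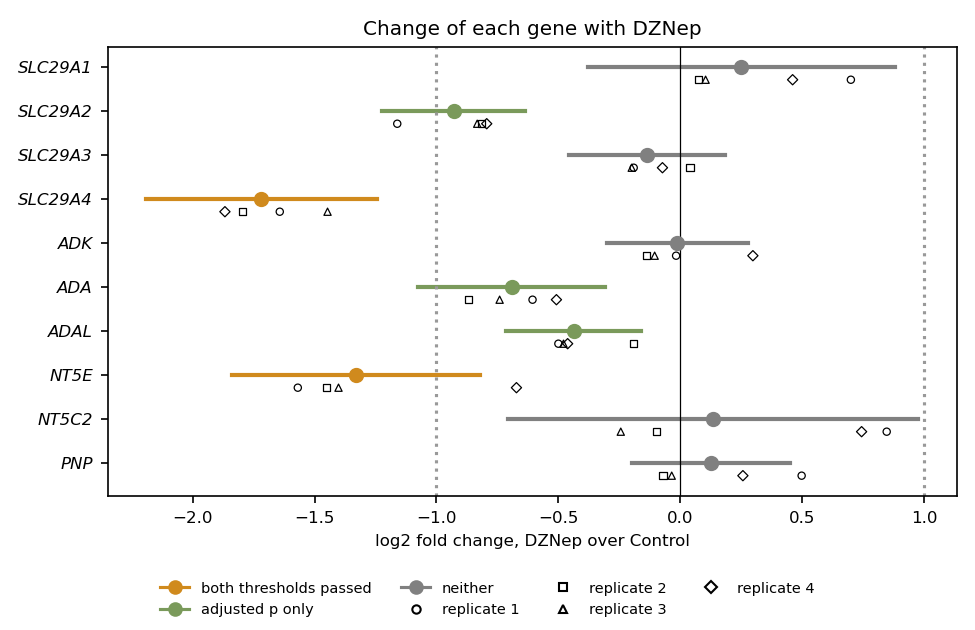
Log2 fold change (DZNep over Control) of the 10 genes from edgeR, with filled circles for the estimate and bars for its 95% interval. Open symbols are the log2 ratios of the 4 pairs of libraries with the same replicate number, and dotted lines mark a 2-fold change. SLC29A4 lies wholly beyond -1, the NT5E bar crosses -1, and the 4 open symbols of SLC29A1 all lie above 0.

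Control replicates 1 and 4 were low for SLC29A1 and NT5C2, so the change was also computed within replicates 1 and 4 and within replicates 2 and 3, a split that these values prompted. For NT5C2 the log2 fold change was 0.84 in replicates 1 and 4 and -0.21 in replicates 2 and 3. SLC29A1 gave 0.61 and 0.05, PNP 0.38 and -0.09, and SLC29A4 -1.75 and -1.63. Within replicates 1 and 4, NT5C2 (adjusted p = 0.032, edgeR) and SLC29A1 (adjusted p = 0.0301, edgeR) were higher by the adjusted p-value alone. Within replicates 2 and 3 they did not pass (adjusted p = 0.286 and 0.796, edgeR). The difference between the 2 sets, as an interaction term in edgeR, did not pass for NT5C2 (adjusted p = 0.490), SLC29A1 (adjusted p = 0.572), PNP (adjusted p = 0.588) or SLC29A4 (adjusted p = 0.883). Across all 19171 genes edgeR passed 0 for this interaction at an adjusted p of 0.05, and 1756 (9.16%) had an unadjusted p under 0.05. NT5C2, whose values helped to prompt the split, was among them (unadjusted p = 0.0117, edgeR).

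Ratios of a pair of genes inside 1 library do not depend on the scaling between libraries. The log2 ratio of ADK to ADA, the enzymes that take adenosine to AMP and to inosine, was 1.04, 1.22, 1.13 and 0.81 in Control and 1.63, 1.95, 1.77 and 1.62 in DZNep libraries. Every DZNep library was above every Control library. The mean ratio was higher by 0.69 on the log2 scale, which is 1.61-fold (exact permutation p = 0.0286, the smallest possible, adjusted p = 0.0857 over 3 ratios). The log2 ratio of SLC29A1 to SLC29A2 was 0.35, 1.69, 1.28 and 0.31 in Control and 2.21, 2.58, 2.21 and 1.56 in DZNep libraries. Replicate 4 of DZNep fell under Control replicate 2, so the groups overlapped, although the ratio was higher with DZNep in 4 of 4 pairs. Its mean was higher by 1.24, or 2.35-fold (exact permutation p = 0.0571, adjusted p = 0.0857). The log2 ratio of NT5C2 to ADK ran from -2.56 to -0.82 in Control and from -2.12 to -0.88 in DZNep libraries, a difference of 0.30 within the spread (exact permutation p = 0.686, adjusted p = 0.686). None of the 3 ratios passed 0.05 after adjustment. With 0.0286 as the smallest exact permutation p, no ratio could pass on its own, so this outcome says little about ADK over ADA.

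**Figure D3:**
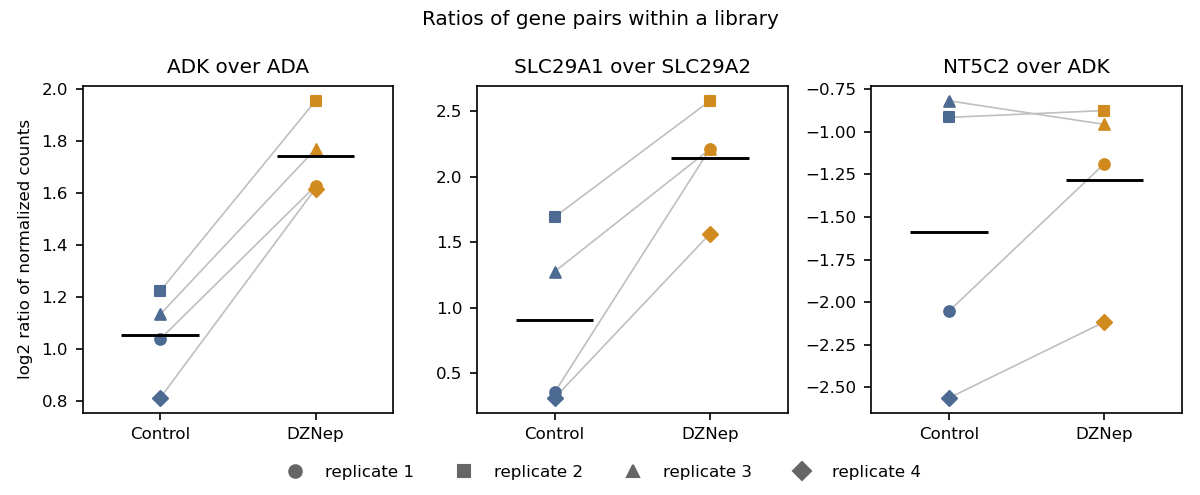
Log2 ratios of normalized counts for ADK over ADA, SLC29A1 over SLC29A2 and NT5C2 over ADK in each library, with symbols for the replicate number, grey lines for pairs of the same number and black bars for group means. The vertical axes differ between panels. The ADK to ADA ratio is 0.81 to 1.22 in Control and 1.62 to 1.95 in DZNep libraries.

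Levels of different genes were compared per exon length, as TPM (counts per base, scaled to the same sum in every library) over the merged exons of each gene. SLC29A1 was the highest in Control with 55.5 ± 33.8 TPM, followed by PNP with 46.5 ± 17.2, SLC29A2 with 40.6 ± 9.75 and ADK with 38.5 ± 11.3 TPM (SD, n = 4). The ranges of neighbors among these 4 overlapped, so their order was not resolved. SLC29A4 with 13.4 ± 1.79 TPM lay below ADK in every Control library, and ADAL with 12.5 ± 3.11, NT5C2 with 8.24 ± 5.92 and ADA with 6.96 ± 1.37 TPM followed without a gap between neighbors. SLC29A3 with 3.45 ± 0.94 TPM lay below ADA in every Control library, and NT5E was the lowest with 2.57 ± 0.995 TPM. Control replicate 4, the library with the highest mitochondrial share, had the lowest Control TPM for all 10 genes. By normalized count that library was the highest in Control for SLC29A4 (1165) and ADA (1109). It was the lowest for SLC29A1, ADK, NT5E and NT5C2 and in between for the other genes. With DZNep, SLC29A4 was at 4.34 TPM and NT5E stayed last with 1.03 TPM. The rank of SLC29A4 went from 5 to 8 over merged exons, but from 8 to 9 over the longest or the canonical transcript, and over the latter its Control level was 7.84 TPM. The length used mattered most for ADA, whose 61 transcript models merge to 12177 bases. Over the canonical transcript it had 32.4 TPM in Control and rank 4, and PNP had 105 TPM and rank 1.

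**Figure D4:**
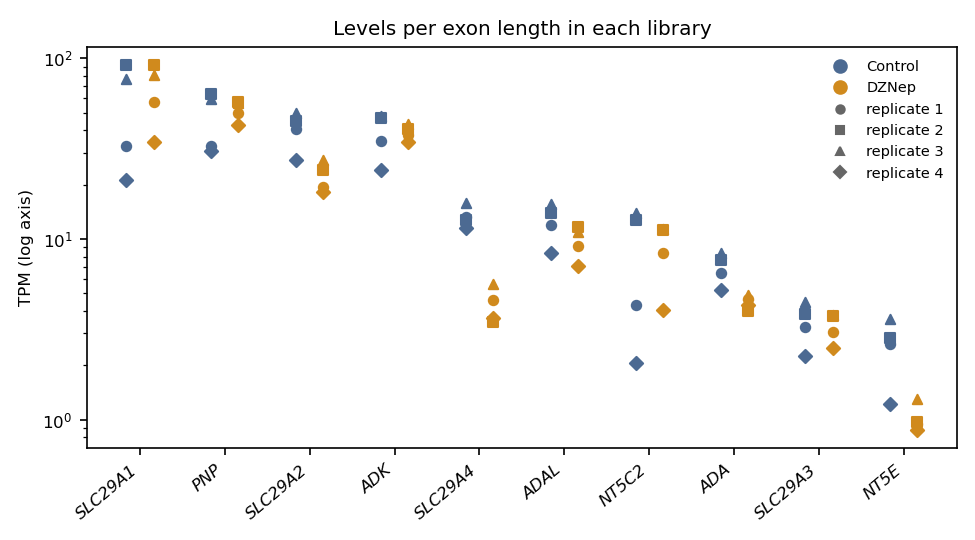
TPM over merged exons (log axis) of the 10 genes in each of the 8 libraries, ordered by the Control mean, with colors for the group and symbols for the replicate number. The 4 genes on the left reach 18.3 to 91.5 TPM in every library, and NT5E on the right has 1.22 to 3.6 TPM in Control and 0.883 to 1.31 TPM in DZNep libraries.

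The other genes of adenosine and purine nucleoside handling were taken as a list of 51 in 10 classes, and 46 passed the filter on low counts. In the treated cells 11 were lower and 8 higher at both thresholds (23.9% and 17.4%, against 13.5% and 10.6% of all genes), with a median log2 fold change of -0.12. Of the higher genes, ENTPD3, ENTPD8 and AMPD1 passed the filter through the DZNep group alone and could be called only as higher. Asking for at least 10 reads in every library left out some of the 46, ENTPD3, ENTPD8 and AMPD1 among them. Of those still tested 10 were lower and 5 higher, against 1950 and 1141 of all 15870 genes tested. In the main fit, 15 were lower and 9 higher by the adjusted p-value alone, where 21.8% and 19.1% of all genes were. Under the replicate block 19 were lower and 17 higher, where 30.2% and 28.8% of all genes were. The concentrative transporters, which take up nucleosides with sodium, were too low to test. SLC28A2 had 0 counts in every Control library, where a count of 0 allows up to 3, and 2 to 10 counts in DZNep libraries. SLC28A3 had 0 to 4 counts in Control and 5 to 18 in DZNep libraries.

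All 4 adenosine receptors were tested, with 1 lower and 2 higher (13.5% and 10.6% of all genes were). ADORA1, a receptor that lowers cyclic AMP, had 98.7, 128, 108 and 102 normalized counts in Control and 462, 482, 483 and 441 in DZNep libraries. Every DZNep library was over 3 times as high as every Control library, and the log2 fold change was 2.07 ± 0.155 (adjusted p = 1.31e-05, edgeR). ADORA2B, a receptor that raises cyclic AMP, had 569, 647, 690 and 610 in Control and 236, 264, 301 and 249 in DZNep libraries, again with no overlap. Its log2 fold change was -1.29 ± 0.15 (adjusted p = 0.000118, edgeR). ADORA2A, which also raises cyclic AMP, rose from 21.0 ± 8.35 to 47.5 ± 19.8 (SD, n = 4), but its groups overlapped and the adjusted p was 0.0445 (edgeR). It went up to 0.0665 without DZNep replicate 1, 0.108 without Control replicate 1, 0.11 without replicate 3 of either group and 0.133 without DZNep replicate 2 (edgeR), so the call rests on each of these 5 libraries.

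Ectonucleotidases break down nucleotides outside the cell, upstream of NT5E or beside it. Of 8 genes 3 were higher and none was lower at both thresholds, also with DESeq2 and with limma. In the main fit 10.6% of all genes were higher and 13.5% lower. By the adjusted p-value alone, the fit with the replicate block added ENPP1 as lower (-0.38, adjusted p = 0.025, edgeR) and ENTPD1 (0.55, adjusted p = 0.00543), ALPL (0.35, adjusted p = 0.0259) and ACP3 (0.50, adjusted p = 0.0496) as higher. ENPP3 went from 26.1 ± 5.6 to 69.4 ± 8.86 normalized counts (log2 fold change 1.38). ENTPD3 had 2 to 7 raw counts in Control and 17 to 44 in DZNep libraries, and ENTPD8 had 3 to 5 and 13 to 22. ENTPD3 and ENTPD8 passed the filter on low counts through the DZNep group alone, so their direction follows from the filter, and with at least 10 reads asked of every library they were not tested. Of the 5 intracellular nucleotidases tested, NT5M, the mitochondrial one, was lower by a log2 fold change of -2.79 ± 0.36 (355, 164, 287 and 439 normalized counts in Control and 55.3, 26.6, 38.9 and 64.1 in DZNep libraries). NT5C1A, a cytosolic one, passed both thresholds as higher with the block alone (1.08 ± 0.31, adjusted p = 0.0074, edgeR). By the adjusted p-value alone, the block added NT5C3B (0.42, adjusted p = 0.00622, edgeR) and NT5C (0.37, adjusted p = 0.0325, edgeR) as higher.

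Of the 4 other deaminases tested, 2 were called as higher, AMPD3 and AMPD1, where 10.6% of all genes were. With the replicate block ADA2 was lower by the adjusted p-value alone (-0.69, adjusted p = 0.0367, edgeR). AMPD3, known from red blood cells, went from 31.9 ± 13.2 to 87.6 ± 18.4 normalized counts, and AMPD1, known from muscle, had 0 to 6 raw counts in Control and 32 to 35 in DZNep libraries. AMPD1 too passed the filter through the DZNep group alone, so it could be called only as higher, and it was not tested with at least 10 reads in every library. In base salvage, HPRT1, which turns the hypoxanthine made by PNP into IMP, was lower by a log2 fold change of -1.09 ± 0.22 (9212 ± 2282 to 4418 ± 974 normalized counts). MTAP, which releases adenine from methylthioadenosine, was lower by -1.08 ± 0.15 (2983 ± 369 to 1436 ± 164), and XDH, the xanthine dehydrogenase, was higher by 1.07 at means of 13.96 and 29.87 normalized counts. These 3 lay near a threshold. HPRT1 was at -0.95 without Control replicate 4 and just under 2-fold without DZNep replicate 3 (-0.995), and MTAP fell just short of 2-fold without DZNep replicate 4 (adjusted p = 0.0011, edgeR). The adjusted p of XDH was 0.0588 without Control replicate 3, 0.0507 without Control replicate 4, 0.0727 without DZNep replicate 2 and 0.0661 without DZNep replicate 3 (edgeR). The nucleoside kinases DCK (log2 fold change 0.31) and DGUOK (-0.80, adjusted p = 0.0308, edgeR) were not called at both thresholds.

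Adenylate kinases, which pass phosphate between AMP, ADP and ATP, held 4 lower genes of 9 and none higher at both thresholds. Of all genes 13.5% were lower and 10.6% higher. By the adjusted p-value alone AK1 was higher, and the replicate block added AK6 as lower (-0.72, adjusted p = 0.000713, edgeR). It also added AK3 as higher (0.41, adjusted p = 0.0118, edgeR). AK9 had 338, 258, 329 and 310 normalized counts in Control and 49.9, 35.4, 58.7 and 54.0 in DZNep libraries, a log2 fold change of -2.67 ± 0.21. AK7 was at -2.24, AK8 at -1.60 and AK5 at -1.13, or -0.997 without DZNep replicate 2. Of 6 genes of AMP, IMP and GMP synthesis, 3 were lower at both thresholds and 5 by the adjusted p-value alone. Of all genes 13.5% and 21.8% were. ADSS1, an adenylosuccinate synthase, had 336, 204, 374 and 375 normalized counts in Control and 28.1, 28.2, 27.6 and 43.9 in DZNep libraries, which is 10.3-fold lower with a log2 fold change of -3.37 ± 0.27 (adjusted p = 1.94e-05, edgeR). IMPDH2, which directs IMP toward GMP, was lower by -1.30 ± 0.13 (12110 ± 830 to 5015 ± 255), and GMPS, the next enzyme, by -1.02 ± 0.15. GMPS fell short of 2-fold without Control replicate 2 (-0.94) or 3 (-0.99) and without DZNep replicate 4 (-0.99), and narrowly without DZNep replicate 3 (adjusted p = 0.00324, edgeR), as it did with other scalings, DESeq2 and limma. AHCY itself, the target of the drug, had a log2 fold change of -0.30 ± 0.15 with no overlap between the groups (adjusted p = 0.142, edgeR). With the replicate block it was -0.32 ± 0.13 (adjusted p = 0.0443, edgeR), and AHCYL2 was higher by 0.48 (adjusted p = 0.0107, edgeR). The AHCY log2 ratios of pairs 1 to 4 were -0.08, -0.68, -0.38 and -0.02, so the lower level lay mainly in replicates 2 and 3. AHCYL1 was at 0.27 (adjusted p = 0.276, edgeR, no block), and none of the 3 genes of this family reached 2-fold.

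**Figure D5:**
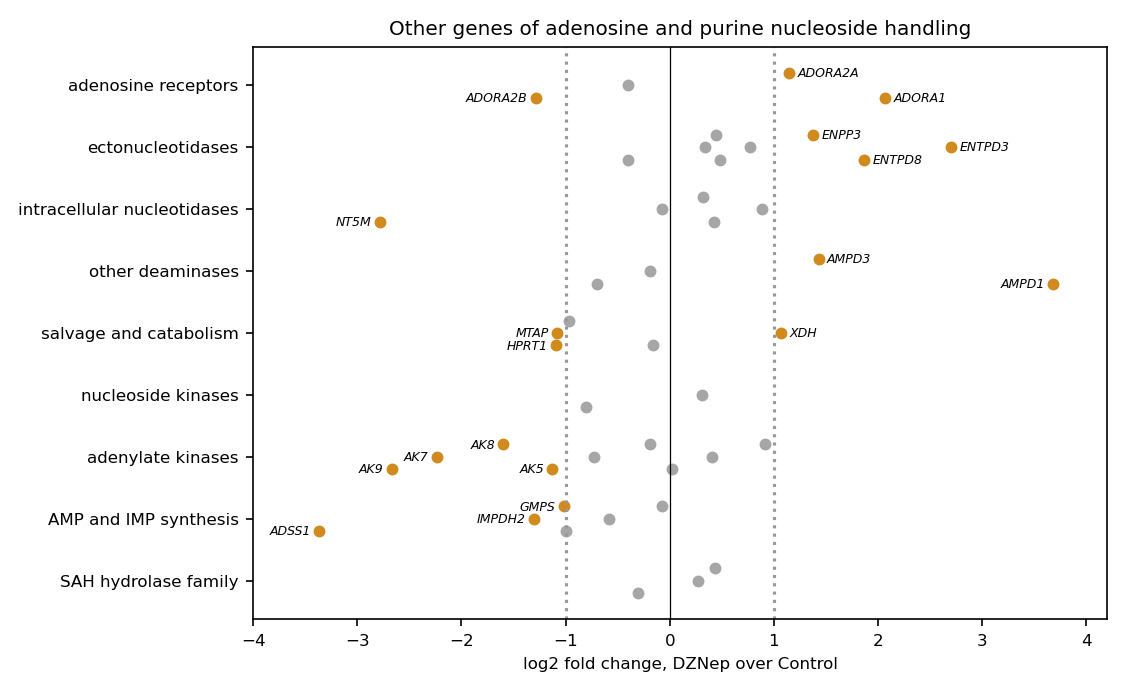
Log2 fold change (DZNep over Control) of the 46 tested genes of the wider list by class, with each gene as 1 point spread vertically for legibility. Orange points passed both thresholds and are named, grey points did not, and dotted lines mark a 2-fold change. The called points of the ectonucleotidases and deaminases are on the right, where ENTPD3, ENTPD8 and AMPD1 could be called only as higher, and all called points of the adenylate kinases and of AMP and IMP synthesis are on the left.

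Over the 8 libraries, the genes whose log2 CPM was most like that of SLC29A4 were GIT1 and BTBD2 (Pearson r of 0.998 each), and for NT5E they were PRIMPOL (0.996) and TIGD6 (0.993). These correlations describe 8 libraries that share 1 treatment contrast.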

How the data were processed

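RNA from HEK293T cells was sequenced as paired reads of 150 bases. The authors trimmed them with Trimmomatic 0.36, mapped them with STAR 2.5.2b to GRCh38 and made counts of unique exonic reads per gene with featureCounts (Subread 1.5.2), which they deposited unnormalized. The normalized table the authors deposited is a signal, checked here to be the count over 1 size factor per library (the submitters' processing notes name DESeq2) for the 19118 genes with more than 80 counts in all. The annotation release and strandedness are not given in the sources used here. No column of sample values was left unused (0).

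Libraries were grouped by the treatment in the labels. R 4.3.3 ran edgeR 4.0.16 (filterByExpr, TMM, quasi-likelihood test, Benjamini-Hochberg) on the counts of all genes, with a pipeline tested on simulated data. The thresholds are those of the study, which used the Wald test of DESeq2 and states no block. The main test has none. Numbers shared by the groups were taken to pair the libraries, since deviations from the group means correlated above 0.1 for every same-numbered pair (0.136, 0.492, 0.429 and 0.673). Some other pairs correlated too (Control 1 with DZNep 4 at 0.529, Control 2 with DZNep 3 at 0.398, Control 3 with DZNep 2 at 0.343). Alternatives were other scalings and filters, DESeq2 1.42.0, limma 3.58.1 on log2(normalized count + 1), the block, each library left out, other thresholds and pseudocounts. Exact permutation tests used scipy 1.17.1. TPM used GENCODE 44 exons, and promoter windows came from RefSeq (GRCh38.p14).

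Members and gene lists were chosen with earlier results of these data known. Named genes are the 10 members, each wider-list gene called at both thresholds (in a class without one, the 2 with most counts), and the 2 genes most alike in pattern to each called member. Further wider-list genes are named because they passed the adjusted p-value alone or the fit with the replicate block, so their naming followed from the results.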

Additional observations from a re-analysis of the deposited data

Results flagged for a closer look

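In 2 of 64 groups of 4 libraries tested, 1 library lay far from the other 3 by Dixon's test, which chance does in about 1 of 20 groups. SLC29A4 had 202.2 normalized counts in DZNep replicate 2 and 314.4 to 319.2 in the other DZNep libraries, with a gap of 0.959 of the group's range. Its lower level with DZNep held without that library, at a log2 fold change of -1.57 (adjusted p = 0.000636, edgeR). ADSS1 had 43.87 normalized counts in DZNep replicate 4 and 27.64 to 28.19 in the others, a gap of 0.966 of the range, and all 4 values lay far below the lowest Control library, at 204.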

How the results depend on the processing

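Of the 10 genes, SLC29A4 passed the adjusted p-value under 18 of 18 alternatives and NT5E and SLC29A2 under 17. ADA passed under 16 and ADAL under 11. NT5C2 and SLC29A1 passed as higher under 1 each, the fit to replicates 1 and 4 alone. Leaving out each library gave 2 lower and 0 higher genes every time, and so did the replicate block, under which the pairing changed no call among the 10 genes. Without the fold threshold 5 were lower. With edgeR's test against a 2-fold change (glmTreat) 1 was lower, since NT5E had an adjusted p of 0.179. Of all 19171 genes, 1066 were lower and 942 higher by that test. ADK changed sign with median-ratio size factors (0.012), library sizes alone (0.057), no filter (0.009), at least 10 reads in every library (0.019), DESeq2 (0.016), limma (0.009) and replicates 1 and 4 alone (0.159), and ran from -0.082 to 0.041 as each library was left out. The range over left-out libraries was -0.126 to 0.407 for NT5C2 (-0.209 with replicates 2 and 3 alone, where PNP was at -0.089), 0.61 to 0.747 for the ADK to ADA ratio, 1.036 to 1.497 for SLC29A1 to SLC29A2 and -0.022 to 0.581 for NT5C2 to ADK. In the wider list 4 genes were lower and 3 higher with glmTreat, 15 and 9 without the fold threshold, 11 and 9 with the block (19 and 17 with the block and no fold threshold), and 5 higher with at least 10 reads in every library, while leaving out libraries gave 9 to 12 lower and 6 to 10 higher. Over all genes, leaving out libraries gave 2322 to 2993 lower and 1936 to 2383 higher, of 19611 to 19922 tested. At 53 to 170 raw counts, NT5E is the gene of the 10 most limited by depth.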
